A study of Mus musculus with 3 samples.

Results

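A set of 10 cartilage genes was examined in nuclei of the newborn mouse aortic valve: the transcription factor genes Sox9, Sox5 and Sox6, and Col9a1, Col9a2, Col9a3, Matn4, Comp, Cytl1 and Snorc, whose products are secreted, deposited in the matrix or, for Snorc, held in the cell membrane. The genes were listed by name, with earlier results of these data known, and they are 10 of 36167 features. RNA was measured in single nuclei of aortic valve structures taken at postnatal day 1 and flash frozen, in 3 pools of 22 to 24 aortic roots each, which form 1 group with no treatment and no control genotype. All pools carry the strain label B6.Cg-Scx<tm1.1(EGFP)Skom, an EGFP allele of the tendon transcription factor gene Scx, and whether pups had 1 or both copies is not stated. A pool mixes roots of many pups, so the 3 pools are the replicates and variation between pups was not measured.

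Heart valve leaflets are kept by interstitial cells that lie in layers rich in collagen, proteoglycan or elastin. These cells are known to share regulators and matrix genes with cartilage. SOX9 is the master regulator of chondrocyte fate and is needed for valve development. SOX5 and SOX6 lack an activation domain of their own and work beside SOX9 on cartilage enhancers. The products of Col9a1, Col9a2 and Col9a3 assemble into type IX collagen, which decorates the surface of cartilage collagen fibrils. Matrilin-4, from Matn4, and the thrombospondin family protein COMP bridge fibrils and other matrix molecules. Cytl1 encodes a small secreted cytokine-like protein that promotes chondrogenesis, and Snorc encodes a chondroitin sulfate proteoglycan of the chondrocyte membrane.

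The results turn on genes of type IX collagen, on Matn4 and, as a contrast, on Cytl1, so the stretch of 250 bases just before their annotated starts is shown. Promoter entries from RefSeq (table build GRCm38.p6, which is not the build GRCm39 named in the submitters' processing notes) matched 6 of the 10 members, with 13 start sites. The SOX factors bind a short core, searched here as 4 hexamers on both strands (the hexamer ACAAAG, its variant ACAATG, the same core written TCAAAG when it opens with T, and the variant TCAATG), and each match is in capitals. Each sequence is written 5′ to 3′ in the direction of transcription.
Col9a1 upstream start, chr1:24177360-24177609, plus strand: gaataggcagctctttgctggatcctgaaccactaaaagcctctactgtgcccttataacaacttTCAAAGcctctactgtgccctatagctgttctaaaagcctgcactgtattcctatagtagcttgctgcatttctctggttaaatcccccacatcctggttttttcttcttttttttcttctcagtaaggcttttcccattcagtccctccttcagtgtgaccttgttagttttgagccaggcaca
Col9a1 downstream start, chr1:24194953-24195202, plus strand: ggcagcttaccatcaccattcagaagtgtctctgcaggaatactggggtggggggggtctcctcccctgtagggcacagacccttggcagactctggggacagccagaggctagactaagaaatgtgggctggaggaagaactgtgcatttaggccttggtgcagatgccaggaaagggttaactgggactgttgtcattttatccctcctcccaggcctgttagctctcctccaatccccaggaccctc
Matn4 upstream start, chr2:164405161-164405410, minus strand: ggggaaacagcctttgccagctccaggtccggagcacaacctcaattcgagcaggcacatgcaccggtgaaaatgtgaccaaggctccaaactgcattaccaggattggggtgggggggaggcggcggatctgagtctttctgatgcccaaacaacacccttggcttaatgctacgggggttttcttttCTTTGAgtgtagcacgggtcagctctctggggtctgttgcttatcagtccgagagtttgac
Matn4 downstream start, chr2:164404819-164405068, minus strand: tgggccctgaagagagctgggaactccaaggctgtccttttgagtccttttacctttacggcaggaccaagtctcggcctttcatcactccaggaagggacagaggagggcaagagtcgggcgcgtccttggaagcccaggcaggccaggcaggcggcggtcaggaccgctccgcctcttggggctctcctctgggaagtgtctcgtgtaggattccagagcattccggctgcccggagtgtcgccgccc
Col9a2, chr4:121039316-121039565, plus strand: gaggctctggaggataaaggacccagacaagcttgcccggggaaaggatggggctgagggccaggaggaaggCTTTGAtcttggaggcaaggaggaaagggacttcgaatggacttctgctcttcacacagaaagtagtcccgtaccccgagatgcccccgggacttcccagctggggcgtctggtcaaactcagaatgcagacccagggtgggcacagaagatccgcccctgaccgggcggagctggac
Cytl1, chr5:37735269-37735518, plus strand: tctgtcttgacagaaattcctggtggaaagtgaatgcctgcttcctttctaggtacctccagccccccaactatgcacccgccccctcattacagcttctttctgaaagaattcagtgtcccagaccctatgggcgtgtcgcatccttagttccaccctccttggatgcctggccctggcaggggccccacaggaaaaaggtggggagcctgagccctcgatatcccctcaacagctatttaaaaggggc
The upstream start of Col9a1 had 1 match, 185 bases before the start, and its downstream start had 0. Matn4 had 1 match, 61 bases before its upstream start, and 0 before its downstream start, Col9a2 had 1 match and Cytl1 had 0. Of all 32851 windows of this length, 39.4% held at least 1 match, so a single match is common. The Sox5 window held 1 match. The 6 windows of Sox6 held between 1 and 6, and 6 of them lay before a single start. Gene counts do not tell the 2 starts of Col9a1 or of Matn4 apart. A match is a description of the letters and not a binding site.

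The deposited matrices held 10580, 5949 and 4611 nuclei in pools 1, 2 and 3. The nuclei with at least 1000 UMIs (unique molecular identifiers, each 1 counted RNA molecule) and at most 5% mitochondrial UMIs numbered 7071, 3253 and 3749. With a minimum of 300 genes and without likely doublets, 13130 nuclei were analysed, with median depths of 4288, 4771 and 3346 UMIs. Pairs of pools shared 44 to 99 barcodes, and 14.1% to 41.8% of deposited nuclei exceeded the mitochondrial limit. The nuclei formed 28 clusters, made without the members, and 25 of them were named from marker genes. Because names were rebuilt from markers, each class carries the word "like". Comparisons used the 9 classes that had 20 nuclei or more in each pool. Valve interstitial-like nuclei numbered 662, 382 and 453 in the 3 pools. All 10 of their marker genes were detected there, with a summed level of 14327 to 15142 CPM (UMIs scaled to counts-per-million) over the pools. The same sum was 4620 to 5528 CPM in fibroblast-like nuclei, the next highest of the 9 classes. Chondrocyte markers, taken as a check for true cartilage, summed to 18.7 to 56.8 CPM in valve interstitial-like nuclei with 7 of 8 detected and Matn1 at 0. In smooth muscle-like nuclei the same 8 markers summed to 210 to 408 CPM. No cluster was named chondrocyte-like.

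Of the 9 members with enough counts to test, 8 were higher there than in the mean of the other 8 classes and none was lower. Over all 14779 genes tested, 18.2% were higher and 15.6% lower in this comparison. The 8 were Sox9, Sox5, Sox6, Col9a1, Col9a2, Col9a3, Matn4 and Comp. Cytl1 did not pass the test, and Snorc was too rare to test. The test was edgeR's quasi-likelihood test on UMI counts summed per pool and class, and p-values were adjusted by Benjamini-Hochberg across every gene in the test. The nuclei of these classes lie in the same 3 libraries, and pool was a block in the model. The p-values therefore measure how differences between classes varied over 3 pools, and not the spread between pools or pups.

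**Figure D1:**
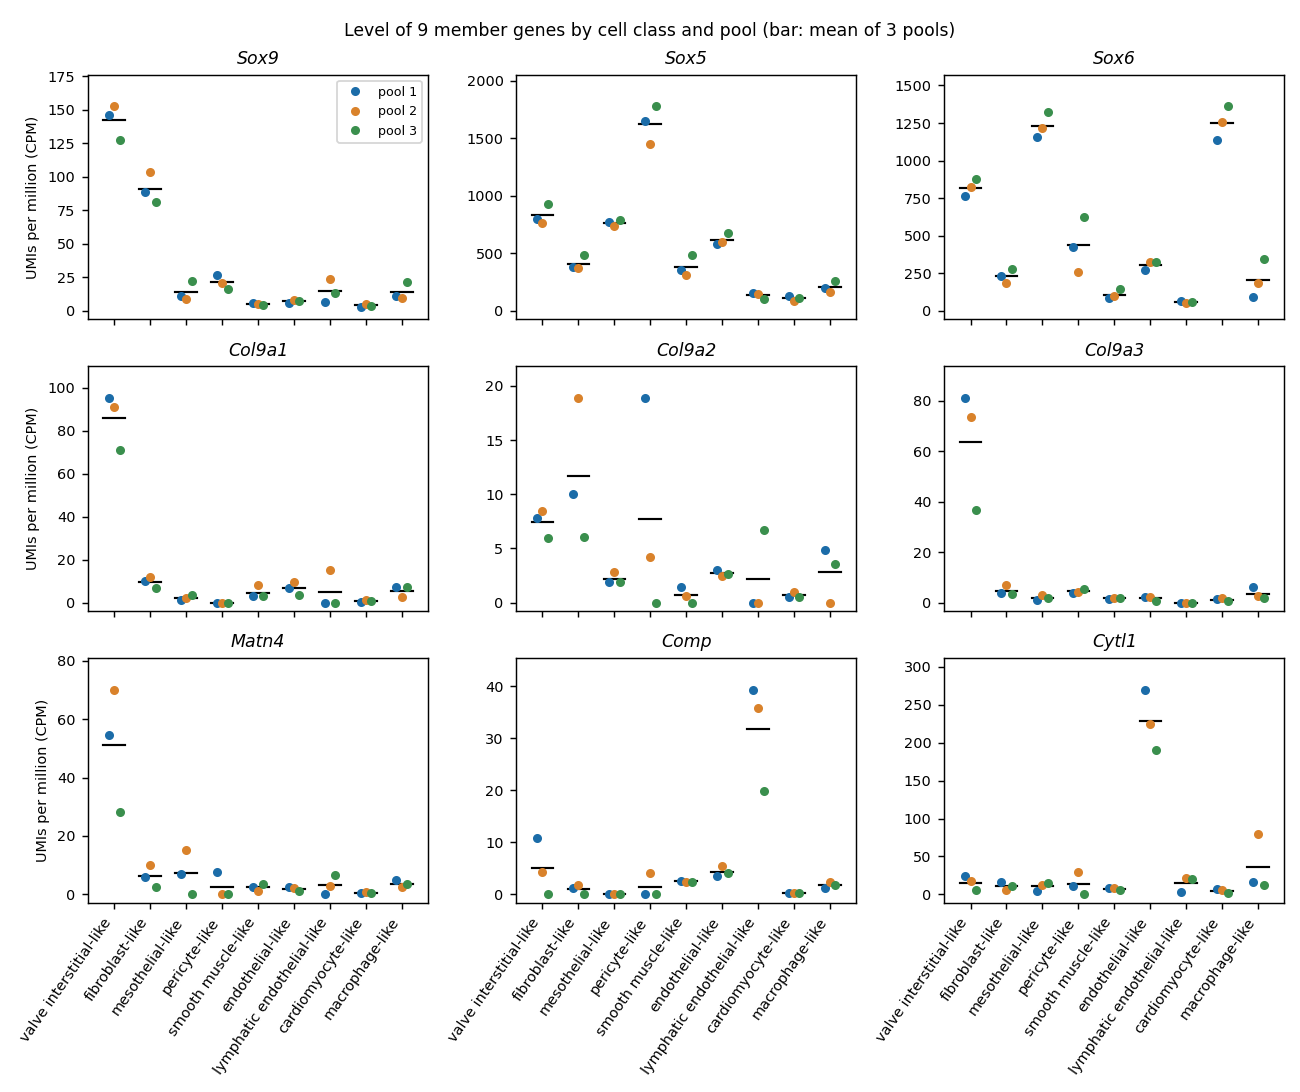
Level of 9 members in CPM (vertical axes, linear, a separate scale for each gene) in the 9 cell classes, with 1 point per pool and a bar at the mean of 3 pools. Sox9, Col9a1, Col9a3 and Matn4 are highest in valve interstitial-like nuclei in every pool, whereas Sox5, Sox6, Comp and Cytl1 peak in another class.

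Sox9, the regulator, was read at 146, 153 and 128 CPM in valve interstitial-like nuclei of pools 1, 2 and 3. In fibroblast-like nuclei it was at 89.0, 103 and 80.8 CPM, and the ranges of these 2 classes did not overlap. The next of the tested classes was pericyte-like, at 21.1 CPM ± 5.25 (SD, n = 3 pools). From pericyte-like to mesothelial-like nuclei, the ranges of neighbouring classes overlapped. Cardiomyocyte-like nuclei were lowest at 3.93 CPM ± 0.935. The log2 difference of valve interstitial-like nuclei from the mean of the other classes was 3.40 ± 0.11 (SE; adjusted p = 3.93e-22). Against fibroblast-like nuclei it was only 0.66 ± 0.12 (adjusted p = 5.72e-05), or 1.56-fold between the mean CPM. Fibroblast-like nuclei themselves exceeded the mean of the other classes for Sox9, with a log2 difference of 2.66 ± 0.12 (adjusted p = 1.06e-17), where 19.2% of genes were higher. Valve interstitial-like nuclei held 44.4% of all Sox9 UMIs of the analysed nuclei.

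The partner genes were not centred on the valve cells. Sox5 was at 799, 761 and 930 CPM in valve interstitial-like nuclei, and at 1649, 1445 and 1782 CPM in pericyte-like nuclei. Every pericyte-like value lay above every valve interstitial-like value, and pericyte-like nuclei were higher by 0.92 ± 0.14 (SE, log2; adjusted p = 5.54e-06). Mesothelial-like nuclei, with 764 CPM ± 29.0 of Sox5, overlapped the valve interstitial-like range, and that difference did not pass the test (log2 difference 0.12 ± 0.13, adjusted p = 0.481). Sox6 was at 764, 821 and 874 CPM in valve interstitial-like nuclei. It was higher in cardiomyocyte-like nuclei, at 1253 CPM ± 113, and in mesothelial-like nuclei, at 1231 CPM ± 85.2, and these 2 classes overlapped. Both were above the valve interstitial-like nuclei, by 1.03 ± 0.19 (adjusted p = 2.38e-05) and 0.82 ± 0.19 (adjusted p = 0.000587) on the log2 scale. Antisense genes that overlap Sox5 and Sox6 were counted at 3 UMIs each in valve interstitial-like nuclei, for Sox5os3 and Sox6os, with whether counting used strand not given in the sources used here.

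Of the type IX collagen genes, Col9a1 and Col9a3 were concentrated in valve interstitial-like nuclei and Col9a2 was not. Col9a1 was at 95.3, 91.2 and 70.9 CPM there, and at 10.02, 12.0 and 6.95 CPM in fibroblast-like nuclei. The lowest valve interstitial-like pool was above the highest value of the other 8 tested classes, and 62.9% of Col9a1 UMIs lay in these nuclei. The difference from fibroblast-like nuclei was 3.17 ± 0.26 (SE, log2; adjusted p = 7.43e-11), an 8.89-fold ratio of mean CPM. Col9a3 was at 81.1, 73.7 and 36.6 CPM in valve interstitial-like nuclei, with pool 3 low, and at 3.76, 6.92 and 3.48 CPM in fibroblast-like nuclei. This difference was 3.84 ± 0.25 (adjusted p = 7.80e-13), 13.5-fold between means, and 70.8% of Col9a3 UMIs lay in valve interstitial-like nuclei. Over 10 alternatives of processing, the log2 difference ran from 3.42 to 5.98. Col9a1 had 0 UMIs in pericyte-like nuclei, and Col9a3 had 0 in lymphatic endothelial-like nuclei. Set against the floor of 3 counts over the class, valve interstitial-like nuclei were at least 19.8-fold and at least 16.8-fold higher, respectively. Since a class at 0 has no defined log2 level, the values against the mean of the other classes, 5.17 for Col9a1 and 5.34 for Col9a3, depend on the prior count. Against all other nuclei summed they were 4.18 ± 0.14 and 4.65 ± 0.20.

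In valve interstitial-like nuclei, 22, 14 and 8 UMIs put Col9a2 at 7.76, 8.45 and 5.97 CPM. Fibroblast-like nuclei reached 10.02, 18.9 and 6.08 CPM, so the 2 classes overlapped. Against the mean of the other classes, Col9a2 was higher in valve interstitial-like nuclei by 1.48 ± 0.38 (SE, log2; adjusted p = 0.00245). Against fibroblast-like nuclei the value was -0.63 ± 0.39 (adjusted p = 0.325), which did not pass the test. With likely doublets kept, that difference passed, at -0.98 (adjusted p = 0.0499), and the adjusted p ranged from 0.0499 to 0.886 over 10 alternatives.

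Matn4, the matrilin gene, was at 54.7, 70.04 and 28.4 CPM in valve interstitial-like nuclei. Of the 9 tested classes, mesothelial-like nuclei came next at 6.85, 15.3 and 0 CPM, and fibroblast-like nuclei had 5.85, 10.1 and 2.61 CPM. None of the other 8 tested classes reached the lowest valve interstitial-like pool. Melanocyte-like nuclei, too few to test, had 11.8, 14.7 and 63.7 CPM of Matn4 from 2, 1 and 4 UMIs. The difference from the mean of the other classes was 4.10 ± 0.23 (SE, log2; adjusted p = 4.05e-16) and that from fibroblast-like nuclei 3.05 ± 0.31 (adjusted p = 4.19e-09). Mesothelial-like nuclei were also above the mean of the other classes for Matn4, by 1.32 ± 0.40 (adjusted p = 0.00539), where 32.7% of genes were higher.

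Comp was a rare RNA with its highest level elsewhere. Lymphatic endothelial-like nuclei had 39.3, 35.9 and 19.96 CPM of Comp, from only 27 UMIs, and exceeded the mean of the other classes by a log2 difference of 4.70 (adjusted p = 9.85e-08), where 12.1% of genes were higher. Mesothelial-like nuclei had 0 Comp UMIs, so that log2 value depends on the prior count. Valve interstitial-like nuclei had 10.9, 4.23 and 0 CPM, from 31, 7 and 0 UMIs. Every lymphatic endothelial-like value lay above them, with a log2 difference of 2.38 ± 0.52 (SE; adjusted p = 0.000644). The call of Comp as higher in valve interstitial-like nuclei rested on pool 1. Its log2 difference from the mean of the other classes was 2.02 with all pools (adjusted p = 0.00127) and 0.48 without pool 1 (adjusted p = 0.669).

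Cytl1 marked endothelial-like nuclei. It was at 270, 225 and 190 CPM there and at 23.6, 17.5 and 5.22 CPM in valve interstitial-like nuclei, with no overlap. Endothelial-like nuclei were above the mean of the other classes by 4.26 ± 0.15 (SE, log2; adjusted p = 1.20e-21), where 22.2% of genes were higher. Within this class, the cluster led by Gm31775, Rtl4 and Myrip, of 600 nuclei, had 643, 619 and 525 CPM of Cytl1. It was above the other endothelial-like clusters by 3.21 ± 0.19 (adjusted p = 4.62e-21). Col9a1 was also higher in that cluster, by 1.38 ± 0.38 (adjusted p = 0.00514), at 10.6, 18.3 and 8.30 CPM, and 10.8% of genes were higher in that comparison. For valve interstitial-like nuclei the Cytl1 difference from the mean of the other classes was 0.02 ± 0.28 (adjusted p = 0.995). Set against all other nuclei summed, where endothelial-like nuclei weigh more, it was -1.89 (adjusted p = 7.86e-09).

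Snorc had 3 UMIs in all deposited nuclei and 2 in the analysed nuclei. In valve interstitial-like nuclei it had 0 UMIs, which allows up to 0.515 CPM over the class.

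Against fibroblast-like nuclei, 7 of the 9 tested members were higher in valve interstitial-like nuclei and none was lower, while 8.13% of all genes were higher and 10.6% lower. The 7 were Sox9, Sox5, Sox6, Col9a1, Col9a3, Matn4 and Comp. The Sox5 difference was 1.04 ± 0.14 (SE, log2; adjusted p = 4.20e-07) and the Sox6 difference 1.86 ± 0.20 (adjusted p = 1.28e-08). For Comp the value was 2.34 ± 0.67 (adjusted p = 0.0113), and without pool 1 it was 1.08 (adjusted p = 0.664). Cytl1, at 0.59 ± 0.41 (adjusted p = 0.395), did not pass. Across all 9 classes and 9 members, 20 pairs of member and class were higher than the mean of the other classes. Of these, 8 fell in valve interstitial-like nuclei, 3 each in fibroblast-like, endothelial-like and mesothelial-like nuclei (where 19.2%, 22.2% and 32.7% of genes were higher), and 1 each in lymphatic endothelial-like, cardiomyocyte-like (Sox6, where 34.3% of genes were higher) and pericyte-like nuclei (Sox5, where 7.52% were). The 3 of 9 members in mesothelial-like nuclei were at the share of all genes. Macrophage-like and smooth muscle-like nuclei had 0, where 15.3% and 23.1% of genes were higher.

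Next, the 2 valve interstitial-like clusters were compared. One was led by Rmst, Galnt14 and Adamts19 and held 229, 108 and 159 nuclei in pools 1, 2 and 3, with a median of 4215 UMIs. The other was led by Ctnna2 and Abi3bp and held 433, 274 and 294 nuclei, with a median of 3266 UMIs. Clusters were made without the members, but genes that vary with them were used, so the comparison is not fully independent of the members. Col9a1 and Col9a3 were higher in the Rmst-led cluster, and Sox9 did not differ past the test. Of 8 members tested, 2 were higher and 1 lower, where 4.31% of 12917 genes were higher and 4.19% lower. Col9a2 did not pass the filter on low counts there.

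Col9a1 was at 155, 154 and 137 CPM in the Rmst-led cluster and at 53.0, 58.7 and 28.3 CPM in the Ctnna2-led cluster. The clusters did not overlap, and the difference was 1.69 ± 0.23 (SE, log2; adjusted p = 8.77e-08). Col9a3 was at 156, 131 and 57.0 CPM in the Rmst-led cluster and at 28.3, 44.1 and 23.3 CPM in the other. Here too the lowest Rmst-led pool was above the highest Ctnna2-led pool, with a difference of 1.91 ± 0.24 (adjusted p = 1.67e-08). Sox9 was at 150, 148 and 137 CPM in the Rmst-led cluster and at 143, 155 and 122 CPM in the Ctnna2-led cluster, which overlapped. The Sox9 difference was 0.07 ± 0.19 (adjusted p = 0.917), and the values of Sox5 (0.26 ± 0.15, adjusted p = 0.411) and Sox6 (-0.49 ± 0.19, adjusted p = 0.120) did not pass either. With no filter on low counts, the Sox6 value passed, at -0.53 (adjusted p = 0.00616).

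Matn4 was at 42.6, 60.0 and 22.8 CPM in the Rmst-led cluster and 63.2, 75.3 and 31.9 CPM in the Ctnna2-led cluster. The Rmst-led value was the lower of the 2 in each pool, and the difference of -0.44 ± 0.30 (SE, log2; adjusted p = 0.478) did not pass. The 29, 7 and 0 Comp UMIs of the Ctnna2-led cluster stood against 2, 0 and 0 in the Rmst-led cluster. Comp was lower in the Rmst-led cluster by edgeR (-3.18 ± 0.84, adjusted p = 0.00813). The call was lost in DESeq2 (adjusted p = 0.0599) and without pool 2 (adjusted p = 0.116), and Comp could not be tested without pool 1. Cytl1 differed by -0.55 ± 0.54 (adjusted p = 0.682).

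**Figure D2:**
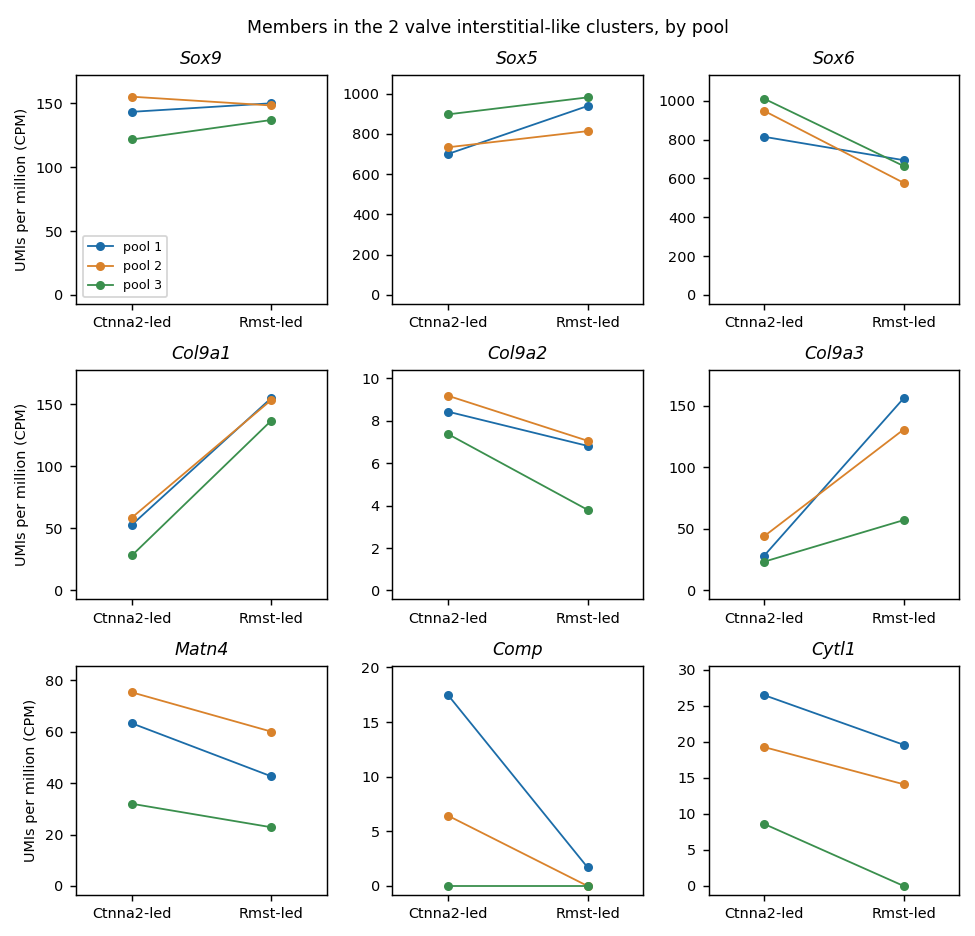
Level of 9 members in CPM (vertical axes, linear) in the Ctnna2-led and the Rmst-led valve interstitial-like cluster, with 1 line per pool. Col9a1 and Col9a3 rise toward the Rmst-led cluster in 3 of 3 pools, while Sox9 stays between 122 and 155 CPM in both.

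Single nuclei were then examined, since a class average does not show whether the same nuclei carry several members. Each nucleus was thinned at random to 1000 UMIs so that depth was equal. After thinning, a Sox9 UMI was found in 189 of 1497 valve interstitial-like nuclei, 12.5% ± 0.942 by pool (SD, n = 3 pools). Pool 1 had 13.3%, pool 2 had 12.8% and pool 3 had 11.5%, and their 95% Wilson intervals ran from 10.9 to 16.1, from 9.84 to 16.6 and from 8.86 to 14.7. In fibroblast-like nuclei the Sox9 share was 6.76% ± 1.29. Cardiomyocyte-like and macrophage-like nuclei, used for the level that free RNA gives, had a Sox9 UMI in 0.370% ± 0.279 and 0.513% ± 0.888. The median depths before thinning were 3596 UMIs in valve interstitial-like, 3855 in fibroblast-like and 5458 in cardiomyocyte-like nuclei. Without thinning, the valve interstitial-like Sox9 share was 30.2%.

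Col9a1 was detected in thinned valve interstitial-like nuclei at a share of 6.38% ± 0.317 (SD, n = 3 pools), with 6.50%, 6.02% and 6.62% in the 3 pools. The Col9a3 share was 5.07% ± 2.16, at 6.80%, 5.76% and 2.65%, and the Matn4 share 4.23% ± 1.45, at 4.53%, 5.50% and 2.65%. Pool 3 was lowest for both Col9a3 and Matn4. In fibroblast-like nuclei the shares were 0.789% for Col9a1, 0.333% for Col9a3 and 0.519% for Matn4. After thinning, all 3 genes were at 0 in the 2317 cardiomyocyte-like nuclei, where a count of 0 leaves room for a share with a UMI at this thinned depth of up to 0.129%. Without thinning, 8 of the same nuclei had a Col9a1 UMI (0.374%), 15 a Col9a3 UMI (0.664%) and 8 a Matn4 UMI (0.364%). By summed counts, Col9a1, Col9a3 and Matn4 were at 5.59, 3.40 and 3.60 CPM in macrophage-like nuclei. In cardiomyocyte-like nuclei they were lower, at 0.697, 1.19 and 0.585 CPM. Col9a2 was present in 0.634% ± 0.168 and Comp in 0.967% ± 1.07 of valve interstitial-like nuclei, against 1.28% ± 1.11 and 0% of fibroblast-like nuclei. Sox5 and Sox6 were found in 48.7% ± 2.70 and 47.7% ± 2.32 of valve interstitial-like nuclei. Sox6 reached 66.1% ± 4.21 in cardiomyocyte-like nuclei, where it is not background. These intervals and limits cover counting error only.

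For Sox9, Col9a1, Col9a2, Col9a3, Matn4 and Comp together, 25.9% ± 3.36 of thinned valve interstitial-like nuclei had at least 1 of the 6 genes. At least 2 of them were seen in 3.57% ± 1.38, 55 of 1497 nuclei, and at least 3 in 6 nuclei. In fibroblast-like nuclei, 9.24% ± 2.89 had at least 1 and 0.445% ± 0.199 at least 2. No thinned cardiomyocyte-like or macrophage-like nucleus had 2. At full depth, 20.6% ± 9.41 of valve interstitial-like nuclei had at least 2, at 25.5%, 26.4% and 9.71% in pools 1, 2 and 3. The corresponding full-depth shares were 5.05% ± 3.81 in fibroblast-like, 2.18% ± 0.962 in macrophage-like and 0.184% ± 0.176 in cardiomyocyte-like nuclei. Pool 3 was the lowest for valve interstitial-like nuclei at both depths. It also had the lowest median depth of the pools, and the part of depth in the full-depth value was not tested.

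**Figure D3:**
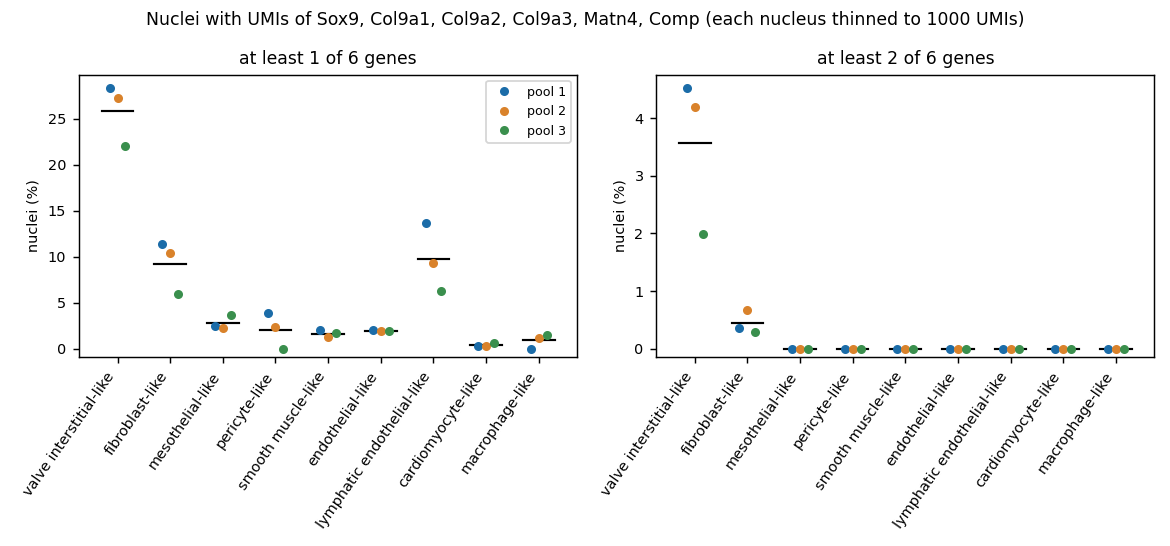
Share of nuclei in percent (vertical axes) with at least 1 (left) or at least 2 (right) of Sox9, Col9a1, Col9a2, Col9a3, Matn4 and Comp in each class, after every nucleus was thinned to 1000 UMIs, with 1 point per pool and a bar at the mean. Valve interstitial-like nuclei are highest in both panels, at means of 25.9% and 3.57%.

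Whether members fell in the same nuclei more often than their separate shares give was counted within pool, cluster and 5 bins of depth. A ratio of 1 means as many nuclei with both genes as the shares give. Ratios are a description and carry no test. Of the 45 pairs of members, 18 had an expected number of at least 3 nuclei in every pool, and 9 of these were above 1 in 3 pools and 3 below. Pairs under that minimum are not ranked, and some had higher ratios, such as Col9a1 with Col9a2 at 2.04 (16 nuclei observed, 9.69 expected). Among the 18 pairs, Col9a1 and Col9a3 had the highest mean ratio. They were seen together in 56, 33 and 11 nuclei where 44.1, 23.2 and 7.96 were expected. Their ratio was 1.27, 1.42 and 1.38 in pools 1, 2 and 3, with a mean of 1.36 ± 0.0792 (SD, n = 3 pools).

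Sox9 was seen with Col9a1 in 59, 33 and 16 nuclei where 55.8, 32.9 and 15.1 were expected. The ratio of 1.04 ± 0.0305 (SD, n = 3 pools) was close to 1 in each pool. At full depth, the ratio for Sox9 with Col9a3 was 1.09 ± 0.115, below 1 in pool 3, and for Sox9 with Matn4 it was 1.17 ± 0.0628, at 1.24, 1.12 and 1.15. Thinned to 1000 UMIs, Sox9 with Matn4 was at 1.49, 0.714 and 2.18, from 6, 2 and 3 nuclei. The ratio of Col9a1 and Matn4 differed between pools, at 1.60, 1.23 and 0.486. In pool 3 this rested on 2 nuclei with both genes where 4.12 were expected. In nuclei thinned to 1000 UMIs, Sox9 with Col9a3 had a mean ratio of 0.747 ± 0.652 (9 nuclei observed, 9.67 expected). That ratio stayed above 1 in pools 1 and 2, and its mean was below 1 through pool 3, with 0 nuclei where 1.39 were expected. Col9a1 with Matn4 had a thinned mean of 0.697 ± 0.618 (3 observed, 3.56 expected), and in pool 2 it turned to below 1, at 0.914 from 1 nucleus. Neither pair had the same direction in all 3 pools at either depth. Sox5 and Sox6 had a ratio of 1.02 ± 0.00759, and Sox9 and Sox6 one of 0.978 ± 0.0263.

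**Figure D4:**
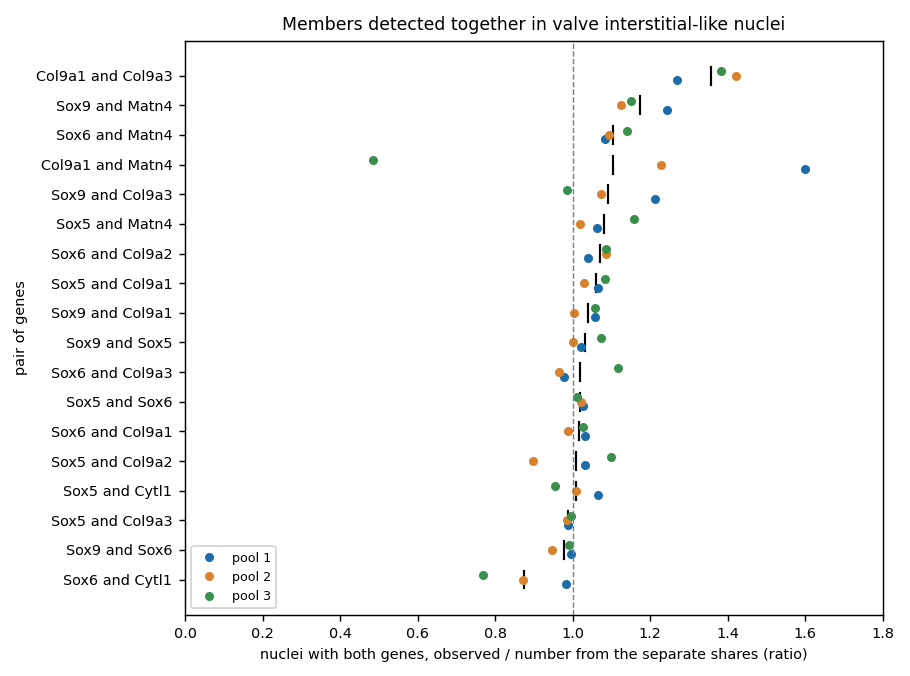
Ratio of the observed number of valve interstitial-like nuclei with both genes to the number given by their separate shares within pool, cluster and depth bin (horizontal axis, dashed line at 1), for 18 pairs of members, with 1 point per pool and a bar at the mean. Col9a1 and Col9a3 lie to the right of 1 in every pool, while Sox9 and Col9a1 lie close to 1 at this full depth.

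Sox9-positive valve interstitial-like nuclei were next set against nuclei of the same pool and cluster with no Sox9 UMI and the nearest UMI total. This gave 221, 131 and 104 pairs in pools 1, 2 and 3. Median depths of the 2 arms were 4476 and 4412 UMIs in pool 1, 4665 and 4637 in pool 2, and 3022 and 3006 in pool 3. A nucleus with no Sox9 UMI may still express Sox9. Col9a1 was detected in 26.7%, 25.2% and 15.4% of the positive arm and in 24.0%, 23.7% and 7.69% of the other. The Matn4 shares were 22.2%, 22.1% and 7.69% against 15.8%, 18.3% and 3.85%. In each pool both genes were more often seen in the positive arm, but by few nuclei in places. Col9a1 was in 59, 33 and 16 nuclei of the positive arm against 53, 31 and 8 partners, and Matn4 in 49, 29 and 8 against 35, 24 and 4. The 8 partners with Col9a1 in pool 3 compare with 15.1 nuclei expected from the shares within cluster and depth bin, so the matched arms differed more there than the ratio of 1.06 for the same pool.

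None of the 5 members tested passed between these arms by edgeR's quasi-likelihood test, where 0.0115% of 8676 genes were called. At an unadjusted p under 0.05 there were 2, Matn4 and Col9a3, and DESeq2 called 0. The Matn4 difference was 0.61 ± 0.21 (SE, log2; adjusted p = 0.491), with the same sign in 3 of 3 pools. Col9a3 differed by 0.43 ± 0.19 (adjusted p = 0.663) and Col9a1 by 0.35 ± 0.19 (adjusted p = 0.774), each also with 1 sign in 3 pools. Sox5 (0.02 ± 0.10, adjusted p = 0.988) and Sox6 (-0.04 ± 0.10, adjusted p = 0.971) were close to 0. Of all genes, 1 was higher in Sox9-positive nuclei. It was Timp3, an inhibitor of matrix metalloproteinases, at 892 against 514 UMIs (log2 difference 0.74 ± 0.11, adjusted p = 0.0316). Timp3 lost its call in DESeq2, where 0 of 8676 genes were called.

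The same split by Col9a1 gave 145, 83 and 61 pairs. In pool 1 the positive arm was deeper, with a median of 5132 against 4622 UMIs, and in pools 2 and 3 the medians were 4806 and 4702, and 3232 and 3231. Col9a3 was detected in 38.6%, 39.8% and 18.0% of Col9a1-positive nuclei and in 24.1%, 26.5% and 8.20% of their partners. Every pool showed the same direction. The Col9a3 difference was 0.85 ± 0.21 (SE, log2; adjusted p = 0.101), and none of 5 members passed by edgeR or DESeq2. Col9a3 was the only member with an unadjusted p under 0.05. It passed when partners were taken within pool and class rather than cluster, at 1.59 (adjusted p = 0.00308), and without pool 3, at 0.90 (adjusted p = 0.0275). Sox9 differed by 0.31 ± 0.19 (adjusted p = 0.880) and Matn4 by 0.26 ± 0.30 (adjusted p = 0.935).

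Among all 7195 genes in this comparison, 0.222% were called, 12 higher and 4 lower. Named are genes with 1 sign in 3 of 3 pools. The largest rises among them were Syt1, a synaptic vesicle calcium sensor (1.56 ± 0.33 SE, log2; adjusted p = 0.0464), and Wif1, a secreted WNT inhibitor (1.28 ± 0.18, adjusted p = 0.00151). Fmod, for the collagen-binding proteoglycan fibromodulin (1.16 ± 0.24, adjusted p = 0.0464), Tox and Sfrp1, for another secreted WNT antagonist, followed. The falls were Gria1, Khdrbs2, Fndc1 and Map1b, between -2.76 and -0.77. None of these was called in DESeq2 or without the pool term, where 0 genes passed in each, and without pool 1 the count was 5.

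Fibroblast-like nuclei also carried Sox9, and there the Sox9 split used 128, 83 and 67 pairs. Col9a1 was found in 6, 8 and 3 nuclei of the Sox9-positive arm and in 4, 3 and 1 of the other, Matn4 in 5, 9 and 0 against 3, 2 and 1, and Col9a3 in 4, 1 and 0 against 1, 4 and 1. These counts are small, and only Col9a1 of the 3 genes had the same direction in every pool. Sox5 was found in 63.3%, 59.0% and 55.2% of the Sox9-positive arm and in 64.1%, 69.9% and 62.7% of the other, the lower share in each pool. The Sox5 difference was -0.26 ± 0.13 (SE, log2; adjusted p = 0.714), and neither Sox5 nor Sox6, the 2 members with enough counts to test there, passed. One model then set the Sox9 effect of the valve interstitial-like class against that of the fibroblast-like class. No member of 6 differed in it, and 0.0104% of 9619 genes did. By both edgeR and DESeq2 the member count was 0, and at an unadjusted p under 0.05 it was also 0. The Col9a1 value was -0.82 ± 0.57 (SE, log2; adjusted p = 1.00) and the Sox5 value 0.29 ± 0.16 (adjusted p = 1.00). Genes called in the fibroblast-like split, 0.288% of 8344, were led by Ly6a, Pi16, Klf2, Ckb and Opcml among rises, with Pi16 at 1.87 ± 0.23 (adjusted p = 0.000736). Its falls were led by Adgrb3, Tnfrsf19, Nrg1, Clca3a2 and Bnc2. Without pool 2, and without the pool term, 0 genes were called in the fibroblast-like split.

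A wider list of 56 cartilage, bone and tendon genes was read in the same comparison of classes. In valve interstitial-like nuclei, 19 of its 33 tested genes were higher than in the mean of the other classes, 4 were lower and 10 did not pass, and 23 genes of the list were too rare to test. Over all genes tested, 18.2% were higher and 15.6% lower. The median log2 difference was 1.58 for the list and -0.01 for all genes tested. The list was chosen with earlier results of these data known. Setting it beside all genes is therefore a description and not independent support. Among genes for cartilage matrix and its assembly, 13 of 17 tested were higher and 1 lower, with a median of 2.22. The other 8 of the 25 genes in that sublist were too rare to test. They were Col2a1, Matn1, Matn3, Chad, Cnmd, Ucma, Cilp and Mia, so the 13 of 17 does not cover them. The largest rises were Prg4, for the lubricant lubricin (4.72 ± 0.24 SE, log2; adjusted p = 1.79e-16), and Hapln1, for the link protein that ties aggrecan and versican to hyaluronan (3.68 ± 0.17, adjusted p = 5.92e-18). Col11a2, Papss2, Fmod, Col12a1, Col11a1 and Chst11 rose by 2.74 to 3.53. Not all of these differed from fibroblast-like nuclei: Col11a1 had a log2 difference of -0.07 ± 0.16 there (SE; adjusted p = 0.854), and Col12a1 was higher by 0.67 ± 0.20 (adjusted p = 0.0160). Hapln1 was at 117, 91.8 and 119 CPM in valve interstitial-like nuclei and 9.61, 13.2 and 19.1 CPM in fibroblast-like nuclei. The 2 classes were far apart for Hapln1 in each pool.

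Acan and Col2a1 encode the core proteins of hyaline cartilage. Acan, for aggrecan, differed in valve interstitial-like nuclei from the mean of the other classes by -0.63 ± 0.21 (SE, log2; adjusted p = 0.0165), at 28.9, 28.4 and 11.2 CPM. Against fibroblast-like nuclei the Acan value was 0.45 ± 0.29 (adjusted p = 0.356), which did not pass the test. Col2a1, for the main fibrillar collagen of cartilage, had 20 UMIs in valve interstitial-like nuclei, at 4.59, 3.62 and 0.746 CPM, and was too rare to test. Of the regulators, 3 of 9 tested were higher and 2 were lower, Zfp385a and Foxc1, with a median of -0.12. Of the hypertrophy and bone genes, 1 of 4 tested was higher, Runx2, and 1 was lower, Mef2c. Of the tendon genes, 2 of 3 tested were higher, Thbs4 and Egr1. Against the 18.2% higher and 15.6% lower of all genes, the 2 of 9 lower regulators and the 1 of 4 hypertrophy and bone genes each way were near the background. Against fibroblast-like nuclei, 14 of the 33 genes were higher (42.4%) and 5 lower (15.2%), where 8.13% of all genes were higher and 10.6% lower.

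**Figure D5:**
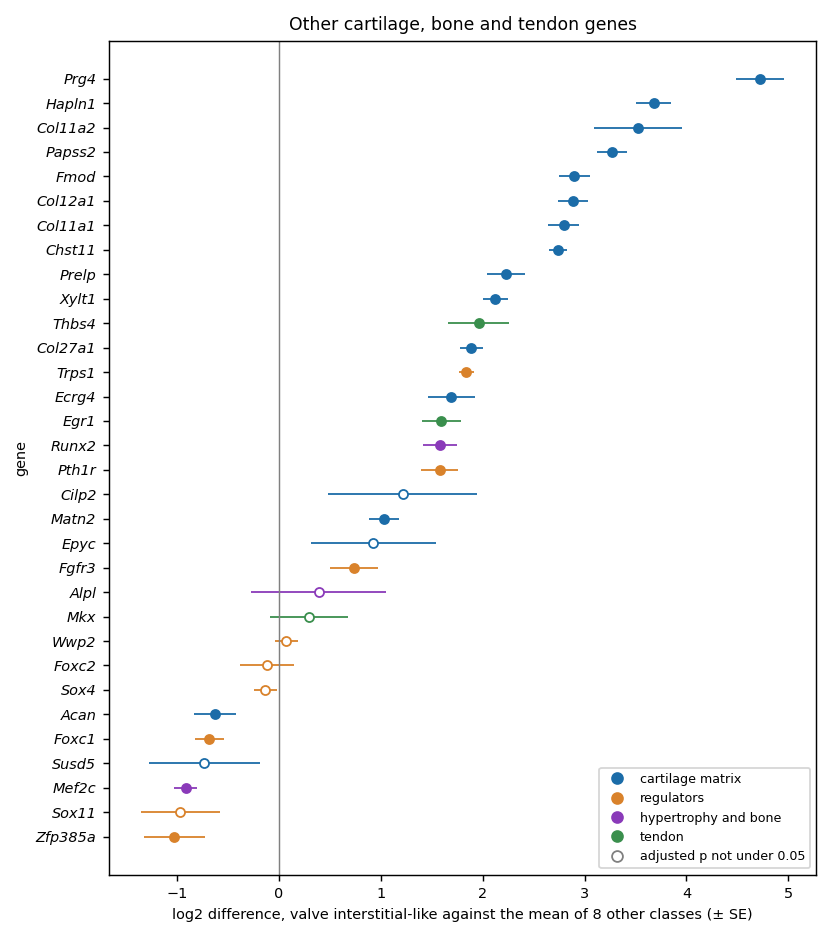
Log2 difference of valve interstitial-like nuclei from the mean of the other 8 classes (horizontal axis, with the SE) for tested genes of the wider list, coloured by sublist, with open points where the adjusted p was not under 0.05. Mmp13 is left out since its SE was too large to draw on this scale. Prg4 and Hapln1 lie highest at 4.72 and 3.68, and Acan lies at -0.63.

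The genes with a pattern most like Sox9 over the 27 pool and class libraries were Itih5, Dnm1, Ctnna2, Dpt and Col11a1, with a Pearson r of log2(CPM + 1) of 0.94, 0.94, 0.91, 0.90 and 0.90. For Col9a1 they were Rmst (0.95), Grin3a (0.89), Esr2 (0.88), Serinc2 (0.86) and Gm30774 (0.86). For Matn4 they were Adamts20 (0.84), Dpysl4 (0.83), Npy (0.83), 5430401H09Rik (0.79) and Cpxm2 (0.79). Among members, Sox9 correlated with Col9a3 at 0.74, with Col9a2 at 0.69, with Col9a1 at 0.67 and with Matn4 at 0.66. Sox9 and Comp had an r of 0.01, and Comp and Sox6 one of -0.68. These libraries share 3 pools and differ in depth, and the values are a description over libraries. Rmst and Ctnna2 are among the markers that named the valve interstitial-like class, so their r is not independent of the class names.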

How the data were processed

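RNA was measured in nuclei of 3 pools by droplet multiome sequencing. The authors deposited a raw UMI count matrix per pool, made with Cell Ranger 7.1.0 per the file headers, and the submitters' processing notes name versions 7.0.1 and 7.1.0 and the build GRCm39. The annotation and the use of intronic reads and of strand are not given in the sources used here. The members and all gene lists were chosen with earlier results of these data known.

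Nuclei were kept at 1000 UMIs, 300 genes and at most 5% mitochondrial UMIs. Doublets were marked by Scrublet score at 0.8% per 1000 nuclei, since its own threshold marked 0 to 2 per pool, and 13130 nuclei stayed. Clusters (scanpy 1.11.5, Leiden resolution 1.0, 2000 variable genes) were made without the members, the wider list, cell cycle, sex-linked and mitochondrial genes. A cluster took the class with most markers, at least 3. Of 3 unnamed clusters, 2 were left so by a rule added after the clusters were seen (3 markers with none leading, or led by haemoglobin genes). Counts were summed per pool and class and tested with edgeR 4.0.16 (quasi-likelihood test, TMM, filterByExpr, pool as a replicate block, since a pool gave 1 library for all its classes) with Benjamini-Hochberg adjustment at 0.05. DESeq2 1.42.0 was an alternative. The labels do not say that pools came from separate litters. Named genes in the splits were up to 5 with the largest change each way, past the threshold and with 1 sign in every pool. The scripts were tested on simulated data.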

Additional observations from a re-analysis of the deposited data

How the results depend on the processing

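Rare members limit the depth of these statements: Col9a2, Comp and Cytl1 rest on few UMIs in valve interstitial-like nuclei. The cause of each change below was not tested. Of 473 alternative values for tests and shares of single members and for ratios of pairs, 423 kept their direction and side of the threshold, or moved by less than 1 SD. The tests of single members numbered 335, and 314 of them kept both. These counts leave out the alternatives of the main results: the numbers of genes called, the Sox9 and Col9a1 shares, and the ratios for Sox9 with Col9a1 and Col9a1 with Col9a3. Without the replicate block, the members called numbered 8, 7, 3 and 20 in the class, fibroblast, cluster and all-class comparisons and 0 in each split, as with it. The all-gene counts of the Sox9 and Col9a1 splits were 0 and 0 without the block, against 1 and 16 with it. The Sox9 split gave 0 genes in DESeq2, with at least 2 UMIs of Sox9, with matching within pool and class, with no filter on low counts and with pairs of closely alike UMI totals, and between 0 and 5 when 1 pool was left out. The Col9a1 split gave 0 genes in DESeq2, 41 with another order of matching, 44 with at least 2 UMIs, 102 with matching within pool and class, 50 with no filter, and between 5 and 80 when 1 pool was left out. Its count of members called was 1 with matching within pool and class and between 0 and 1 when 1 pool was left out. The share of valve interstitial-like nuclei with a Sox9 UMI was 11.2% with doublets kept, 21.0% thinned to 2000 UMIs and 30.2% with no thinning, and for Col9a1 it was 7.001%, 12.4% and 19.0%. The ratio for Sox9 with Col9a1 was 1.44 in nuclei thinned to 1000 UMIs, and for Col9a1 with Col9a3 it was 1.93 thinned and 1.61 within pool and depth bin only. Thinned pairs rest on few nuclei: Sox9 with Col9a3 had a mean ratio of 0.747 (9 nuclei observed, 9.67 expected, 0 in pool 3) and Col9a1 with Matn4 one of 0.697 (3 observed, 3.56 expected), while Sox9 with Matn4 was 1.46 (11 observed, 8.20 expected). Cytl1 against the mean of the other classes turned from 0.02 (log2) to -0.20 in DESeq2, -1.89 against all other nuclei summed, -0.39 from 500 UMIs, -0.18 with doublets kept, -0.022 without the block, -0.12 at resolution 0.5, and to between -0.57 and 0.42 when 1 pool was left out. In the Sox9 split, leaving out 1 pool gave Sox5 values from -0.066 to 0.080 and Sox6 values from -0.094 to 0.031. In the Col9a1 split, Sox6 turned to 0.13 with at least 2 UMIs and 0.032 with pairs of closely alike UMI totals, and leaving out 1 pool gave -0.28 to 0.059 for Sox6 and -0.45 to 0.67 for Matn4. None of these turned split values passed the test.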

Other observations

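Melanocyte-like nuclei, 57 in all and too few to test, carried Sox5 at 1135, 1319 and 1082 CPM and Sox6 at 1132 CPM ± 290 (SD) in pools 1, 2 and 3. Matn4 was at 11.8, 14.7 and 63.7 CPM there, from 2, 1 and 4 UMIs, and Col9a1, Col9a2 and Comp were at 0. One of the 2 analysed Snorc UMIs lay in a melanocyte-like nucleus of pool 1 and the other in a smooth muscle-like nucleus of pool 3. Adipocyte-like nuclei, 62 in all with 3 in pool 3, had Sox5 at 611, 792 and 286 CPM, and Matn4 and Comp at 0.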
